A study of Homo sapiens with 18 samples.

Results

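The transcripts described here are those of 9 genes of the EGF receptor system, 3 receptors (EGFR, ERBB2 and ERBB3) and 6 ligands (AREG, EREG, HBEGF, TGFA, EPGN and BTC), in MCF-10A cells that carry an added splicing factor. The genes were chosen by name, by matching the Ensembl identifiers of the deposited count table to symbols, and all 9 were found among its 60252 genes. Of these, 8 passed the low-count filter and were tested among 21326 genes; TGFA did not pass it.

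MCF-10A is a non-tumorigenic human mammary epithelial line that forms acinus-like structures in basement membrane gel. All cells carried a stably integrated retroviral construct and were cultured in 3D in Matrigel until day 8. It carried the coding sequence of one factor, which was SRSF2, SRSF4, SRSF6, SRSF9 or TRA2B, or it was the empty vector PWZL. SRSF2, SRSF4, SRSF6 and SRSF9 are SR proteins and TRA2B is an SR-like protein, and all of them bind pre-mRNA and help to choose splice sites. The 18 samples formed 6 groups of 3, called here SRSF2-OE, SRSF4-OE, SRSF6-OE, SRSF9-OE, TRA2B-OE and Control.

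In SRSF4-OE, SRSF6-OE, TRA2B-OE and Control, replicates 1 and 2 carry a single library ID and barcode and differ in sequencing lane. Their counts were summed, which left 14 libraries, 3 each in SRSF2-OE and SRSF9-OE and 2 in each of the other groups. The 4 summed libraries have descriptions with a library ID and the other 10 have numeric descriptions, and these 2 library sets entered the model as a term. SRSF2-OE and SRSF9-OE hold numeric libraries only. Library totals ran from 42959069 to 121601376 counts. Whether the libraries of a group stem from cultures grown separately is not in the labels, so each p-value reflects variation among libraries that could be technical. The 5 comparisons with Control share the same 2 Control libraries.

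Of 8 markers of this basal-like mammary epithelium, 7 were above 1 CPM (counts scaled to the size of the library) in every library, among them the keratins KRT5 and KRT14, while EPCAM was as low as 0.54 CPM. The introduced factor lay above both Control libraries in every library of SRSF2-OE, SRSF4-OE, SRSF9-OE and TRA2B-OE, but not in SRSF6-OE. SRSF9 had 359, 629 and 839 CPM in SRSF9-OE, against 95.4 and 92.4 CPM in Control. SRSF4 had 187 and 168 CPM in SRSF4-OE, against 95.5 and 71.4 CPM in Control. SRSF6 had 417 and 283 CPM in SRSF6-OE, which overlapped the 400 and 239 CPM of Control, so the level of total SRSF6 transcript did not separate libraries labelled SRSF6-OE from Control. TRA2B had 201 and 147 CPM in TRA2B-OE, against 106 and 105 CPM in Control. SRSF2 had 214, 396 and 310 CPM in SRSF2-OE, against 204 and 176 CPM in Control. The library with the smallest excess of its factor was SRSF2-OE replicate 1 in that group and TRA2B-OE replicate 3 in the other. TRA2B was above both Control libraries in every other overexpression group too, so separation from Control does not mark TRA2B-OE. TRA2B-OE replicate 3 was below both SRSF4-OE libraries (158 and 168 CPM), amid those of SRSF6-OE and above the rest. For SRSF2, SRSF2-OE replicate 1 was below SRSF4-OE (272 and 248 CPM) and TRA2B-OE (258 and 224 CPM), and amid SRSF6-OE and SRSF9-OE. In SRSF4-OE and SRSF9-OE, every library had more of its factor than any library of another group.

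The ERBB receptors are cell-surface tyrosine kinases that act as pairs. EGFR binds the EGF-type ligands, ERBB2 has no known ligand of its own, and ERBB3 binds neuregulins and has little kinase activity, so that it signals through its partner. The ligands are made as membrane-anchored precursors that metalloproteases release, and receptor activation feeds into the RAS-ERK and PI3K-AKT cascades. Mammary epithelial cells in culture depend on EGF receptor signals for growth, and MCF-10A medium usually contains added EGF.

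EGFR was the most abundant of the 9 transcripts per length in the 14 libraries, with a median of 85.0 CPM per kb of annotated exon. The ligand EPGN was next, with a median of 25.0 CPM per kb. ERBB2 (6.39 CPM per kb), EREG (5.69 CPM per kb) and HBEGF (5.43 CPM per kb) had close medians, and AREG (3.22 CPM per kb) and ERBB3 (2.58 CPM per kb) followed. Per kb, EGFR was above EPGN within every library, although their ranges over the libraries overlapped. The ranges of neighbours in the order from ERBB2 to ERBB3 overlapped too, so these neighbours are not separated beyond the spread. EPGN (9.51 to 61.3 CPM per kb) lay wholly above ERBB2 (5.25 to 8.80 CPM per kb), and ERBB2 wholly above ERBB3 (1.29 to 3.81 CPM per kb). BTC was near the floor at 0.107 CPM per kb. TGFA had 1 count in all, in SRSF6-OE replicate 3, and 0 in the other 13 libraries, where a count of 0 allows up to 0.0229 to 0.0719 CPM depending on depth; this limit covers counting error only.

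AREG, EREG, HBEGF and EPGN varied more over the libraries than the 3 receptors, and BTC did not on the log2(CPM + 1) scale. The highest library exceeded the lowest 1.68-fold for ERBB2, 2.95-fold for ERBB3 and 3.21-fold for EGFR. The same ratio was 19.4 for AREG, 21.6 for EREG and 21.2 for HBEGF. The SD of log2(CPM + 1) over the 14 libraries was 1.15 for AREG, 1.26 for EREG and 1.17 for HBEGF, which was larger than in 98.7%, 99.2% and 98.8% of the genes tested. EPGN had an SD of 0.71, and its highest library exceeded its lowest 6.45-fold. The SD was 0.42 for EGFR, 0.42 for ERBB3 and 0.21 for ERBB2, and 0.15 for BTC, whose low level this scale compresses and whose highest library exceeded its lowest 8.08-fold.

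**Figure D1:**
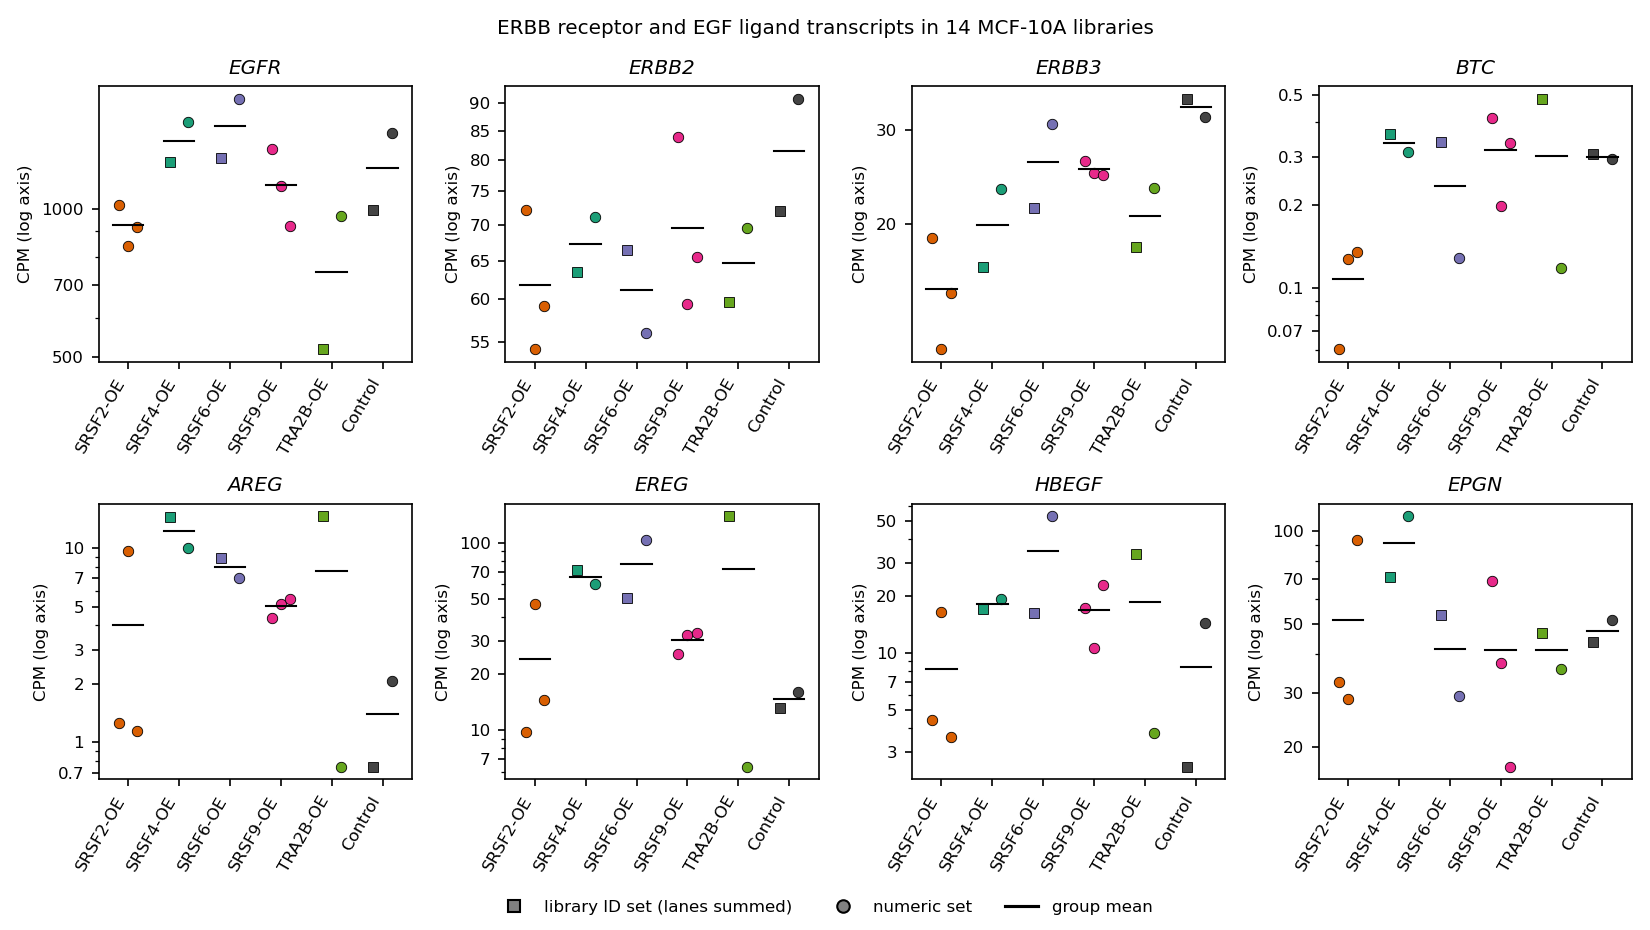
Level of each of 8 transcripts in each library, in CPM on a log axis, by group. Points are libraries (squares, library ID set with lanes summed; circles, numeric set) and lines are group means; the 12 ERBB3 points of the overexpression groups all lie below both Control points, while AREG, EREG and HBEGF spread widely within SRSF2-OE and TRA2B-OE.

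Among the receptors, EGFR, the receptor of the EGF-type ligands, had its highest mean in SRSF6-OE and its lowest in TRA2B-OE. It had 1018, 842 and 916 CPM in SRSF2-OE, 1246 and 1497 CPM in SRSF4-OE, 1268 and 1670 CPM in SRSF6-OE, 1318, 1112 and 924 CPM in SRSF9-OE, and 520 and 967 CPM in TRA2B-OE, against 995 and 1423 CPM in Control. Both TRA2B-OE libraries lay below both Control libraries, and every other group overlapped Control. The log2 fold change over Control was -0.73 ± 0.22 (SE) in TRA2B-OE and -0.62 ± 0.22 in SRSF2-OE, both with an adjusted p of 0.275 by edgeR's quasi-likelihood test with Benjamini-Hochberg adjustment. It was 0.20 ± 0.22 in SRSF4-OE, 0.29 ± 0.22 in SRSF6-OE and -0.35 ± 0.22 in SRSF9-OE, with edgeR adjusted p of 0.675, 0.465 and 0.87.

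Over the 6 groups together, EGFR had an edgeR adjusted p of 0.249, while DESeq2's likelihood ratio test gave an adjusted p of 0.000167. DESeq2 called 8.04% of the genes it tested in this comparison and edgeR 0.0422%. EGFR was also the member with the smallest p between the library sets: in each of the 4 groups that hold both, the library ID set was lower, at 0.538 times the numeric level in TRA2B-OE, 0.759 in SRSF6-OE, 0.832 in SRSF4-OE and 0.699 in Control. The fitted set difference was -0.52 ± 0.16 on the log2 scale, with an adjusted p of 0.203 by edgeR and 0.0357 by DESeq2, which called 3.58% of genes between the sets, against 0.0328% by edgeR. Compared within sets, EGFR in TRA2B-OE was 0.523 times Control in the library ID set and 0.680 times Control in the numeric set. In the overlapping antisense gene EGFR-AS1, 26415 counts were assigned over all libraries; the strand setting of the counting was not stated, so reads of the pair may be mixed.

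ERBB2, the receptor without a ligand of its own, varied least. Group means were 61.9 ± 9.33 CPM in SRSF2-OE (SD, n = 3), 67.3 ± 5.36 in SRSF4-OE (n = 2), 61.2 ± 7.46 in SRSF6-OE (n = 2), 69.6 ± 12.7 in SRSF9-OE (n = 3) and 64.6 ± 6.94 in TRA2B-OE (n = 2), against 81.5 ± 13.3 CPM in Control (n = 2). The 5 fitted log2 fold changes were all negative, from -0.45 ± 0.20 in SRSF2-OE to -0.27 ± 0.21 in SRSF4-OE, and the smallest edgeR adjusted p among the 5 was 0.305, in SRSF6-OE. PGAP3 and MIEN1 overlap ERBB2 on the opposite strand, with 16108 and 20768 counts over all libraries.

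ERBB3, the neuregulin receptor, was lower than Control in every overexpression library. It had 18.8, 11.7 and 14.9 CPM in SRSF2-OE, 16.7 and 23.3 CPM in SRSF4-OE, 21.5 and 30.9 CPM in SRSF6-OE, 26.3, 25.0 and 24.8 CPM in SRSF9-OE, and 18.2 and 23.4 CPM in TRA2B-OE, against 34.4 and 31.8 CPM in Control. All 12 overexpression libraries lay below both Control libraries, the nearest being SRSF6-OE replicate 3 at 30.9 CPM. ERBB3 was the only one of the 8 members tested with this pattern, which 3.87% of the 21326 genes tested also had; 4.31% had the opposite one and no member did. In bulk RNA, fewer cells with a transcript and less of it per cell cannot be told apart.

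The fitted log2 fold change of ERBB3 was -1.30 ± 0.22 in SRSF2-OE, 0.405 times the Control level. It was -0.76 ± 0.23 in SRSF4-OE, -0.38 ± 0.23 in SRSF6-OE, -0.56 ± 0.23 in SRSF9-OE and -0.70 ± 0.23 in TRA2B-OE. By edgeR none passed, with adjusted p of 0.127 in SRSF2-OE, 0.244 in SRSF4-OE, 0.364 in SRSF6-OE, 0.87 in SRSF9-OE and 0.30 in TRA2B-OE. DESeq2 called ERBB3 in SRSF2-OE, with an adjusted p of 0.000135, where it called 2.95% of genes, and over the 6 groups, with an adjusted p of 0.000669. Without SRSF2-OE replicate 1, edgeR also passed it in SRSF2-OE, at a log2 fold change of -1.49 and an adjusted p of 0.0323, where 0.325% of genes were called.

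Compared within library sets, ERBB3 in SRSF2-OE was 0.592, 0.367 and 0.468 times Control in its 3 libraries, all of the numeric set. In SRSF4-OE it was 0.484 times Control in the library ID set and 0.731 in the numeric set, in SRSF6-OE 0.623 and 0.969, and in TRA2B-OE 0.527 and 0.735. It was below Control in both sets of all 3 groups, and closer to Control in the numeric set. The direct difference between SRSF2-OE and SRSF6-OE was -0.93 ± 0.22 for ERBB3 and -0.91 ± 0.22 for EGFR, each with an edgeR adjusted p of 0.132, the smallest for any member in the 10 comparisons between overexpression groups.

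The marker genes KRT17 and KDR were also lower in all 12 overexpression libraries than in both Control libraries. KRT17, a keratin of the basal epithelial list, was at 699 to 6568 CPM in the overexpression libraries, against 6904 and 9786 CPM in Control. Its smallest adjusted p over the 5 comparisons was 0.222 by edgeR and 0.186 by DESeq2, both in SRSF2-OE. The other 7 genes of that list overlapped between overexpression and Control libraries. The endothelial list, of which 3 of 4 genes were matched, summed to 2.35 to 12.6 CPM in the overexpression libraries, against 20.2 and 26.2 CPM in Control. Only KDR carried this sum, at 2.24 to 12.5 CPM in the overexpression libraries, against 20.1 and 26.2 CPM in Control, while the endothelial genes VWF and CDH5 were at or near 0 in every library. DESeq2 called KDR lower in SRSF6-OE, with an adjusted p of 0.0314, where it called 7.04% of genes. There edgeR gave a log2 fold change of -1.87 ± 0.61 and an adjusted p of 0.182. In SRSF2-OE, SRSF4-OE and SRSF9-OE the DESeq2 adjusted p of KDR was 0.375, 0.175 and 0.93. The fibroblast list summed to 160 to 433 CPM in the overexpression libraries, against 263 and 550 CPM in Control, from COL1A1, DCN and PDGFRB, and the immune list did not exceed 1.31 CPM. The part of these transcripts in the ERBB3 result was not tested.

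The ligands AREG, EREG and HBEGF had their lowest levels in the same few libraries. AREG, amphiregulin, had 1.27, 9.64 and 1.15 CPM in SRSF2-OE, 14.4 and 10.03 CPM in SRSF4-OE, 8.90 and 7.0 CPM in SRSF6-OE, 4.39, 5.13 and 5.49 CPM in SRSF9-OE, and 14.5 and 0.75 CPM in TRA2B-OE, against 0.75 and 2.06 CPM in Control. All libraries of SRSF4-OE, SRSF6-OE and SRSF9-OE lay above both Control libraries. In SRSF2-OE only replicate 2 did, and in TRA2B-OE only the summed replicate 1-2, while TRA2B-OE replicate 3 was as low as the lowest Control library.

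EREG, epiregulin, had 9.83, 47.2 and 14.5 CPM in SRSF2-OE, 71.1 and 59.9 CPM in SRSF4-OE, 50.7 and 103 CPM in SRSF6-OE, 25.3, 32.0 and 33.1 CPM in SRSF9-OE, and 138 and 6.36 CPM in TRA2B-OE, against 13.2 and 16.0 CPM in Control. The same 3 groups, SRSF4-OE, SRSF6-OE and SRSF9-OE, were wholly above Control, and the same library of SRSF2-OE and of TRA2B-OE stood above the others of its group. HBEGF, heparin-binding EGF-like growth factor, had 4.38, 16.5 and 3.6 CPM in SRSF2-OE, 17.1 and 19.2 CPM in SRSF4-OE, 16.3 and 52.8 CPM in SRSF6-OE, 17.2, 10.6 and 23.0 CPM in SRSF9-OE, and 33.3 and 3.76 CPM in TRA2B-OE, against 2.49 and 14.4 CPM in Control. For HBEGF the Control libraries themselves lay far apart, and only SRSF4-OE and SRSF6-OE were wholly above them.

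The fitted log2 fold changes of these ligands were large and so were their errors. AREG was at 2.94 ± 1.27 in SRSF4-OE, 2.34 ± 1.25 in SRSF6-OE, 2.04 ± 1.17 in SRSF9-OE, 1.97 ± 1.39 in TRA2B-OE and 1.72 ± 1.16 in SRSF2-OE. EREG was at 2.46 ± 1.08 in SRSF6-OE, 2.12 ± 1.06 in SRSF4-OE, 2.02 ± 1.16 in TRA2B-OE, 1.27 ± 1.02 in SRSF9-OE and 0.93 ± 1.01 in SRSF2-OE. HBEGF was at 2.09 ± 1.12 in SRSF6-OE, and its other values ran from -0.13 ± 1.0 in SRSF2-OE to 1.53 ± 1.28 in TRA2B-OE. No value passed: the smallest edgeR adjusted p was 0.311 for AREG, 0.248 for EREG and 0.313 for HBEGF, all in SRSF6-OE, and the smallest by DESeq2 was 0.146, for EREG in SRSF6-OE.

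The call for these ligands depended on which libraries were fitted. With only the libraries of SRSF4-OE and Control in the model, 4 libraries for 3 coefficients, edgeR's adjusted p was 0.00993 for AREG, 0.00302 for EREG and 0.0181 for EPGN, where 12.2% of genes were called. With only SRSF6-OE and Control, it was 0.033 for EREG and 0.0461 for HBEGF, where 0.744% of genes were called. Leaving out TRA2B-OE replicate 1-2 turned the TRA2B-OE log2 fold changes to -0.91 for AREG, -1.34 for EREG and -1.48 for HBEGF. Leaving out SRSF2-OE replicate 2 brought those of SRSF2-OE to -0.0018 for AREG and -0.034 for EREG.

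Compared within library sets, AREG in SRSF4-OE was 19.2 times Control in the library ID set and 4.87 times Control in the numeric set, and in SRSF6-OE 11.9 and 3.4 times. EREG in SRSF4-OE was 5.40 and 3.75 times Control in these sets, and in SRSF6-OE 3.86 and 6.44 times. In TRA2B-OE, AREG was 19.4 times Control in the library ID set and 0.363 times Control in the numeric set, and EREG was 10.5 and 0.398 times, so that the sets gave opposite directions there. HBEGF showed the same reversal in TRA2B-OE, at 13.4 and 0.261 times Control. In SRSF4-OE, HBEGF was 6.89 times Control in the library ID set but 1.33 times in the numeric set. In SRSF6-OE its ratios were 6.54 and 3.67.

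The share of counts from mitochondrial genes also differed between libraries of a group. It was 16.4%, 8.31% and 11% in SRSF2-OE replicates 1, 2 and 3, and 9.18% and 14.3% in TRA2B-OE replicates 1-2 and 3. In SRSF4-OE, SRSF6-OE and SRSF9-OE it was 6.45% to 10.4%, against 12.0% and 7.64% in Control. Within SRSF2-OE, TRA2B-OE and Control, the library with the lowest share was the one with the highest AREG, EREG and HBEGF. The other 3 groups did not follow this. In SRSF9-OE the library with the lowest share, replicate 2 at 6.95%, had the lowest HBEGF and neither the highest AREG nor the highest EREG. In SRSF6-OE the library with the lower share had the lower AREG and the higher EREG and HBEGF, and in SRSF4-OE it had the higher AREG and EREG and the lower HBEGF. The part of this in the ligand levels was not tested.

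**Figure D2:**
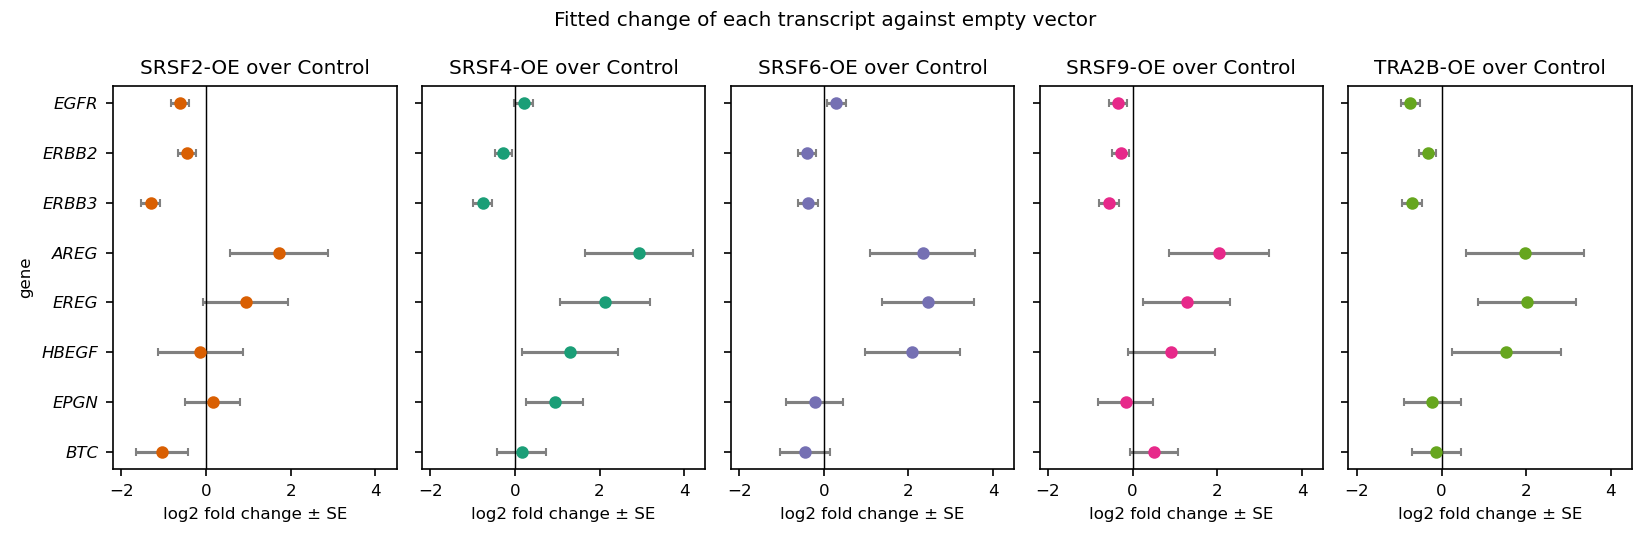
Fitted log2 fold change over Control (points) with its standard error (bars) for 8 transcripts in the 5 overexpression groups, from the edgeR model with group and library set. ERBB3 is negative in all 5 panels with small errors, down to -1.30 in SRSF2-OE, while AREG and EREG are positive in all 5 with errors of about 1 log2 unit or more.

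Across the 14 libraries, the levels of AREG, EREG and HBEGF on the log2(CPM + 1) scale went together. Pearson's r was 0.93 between AREG and EREG (Spearman's rho 0.94), 0.83 between AREG and HBEGF and 0.87 between EREG and HBEGF. EPGN, which lies beside EREG, did not follow them, with r of 0.08 to AREG, 0.06 to EREG and -0.14 to HBEGF. These correlations describe 14 libraries that share groups, library sets and depth, and no p is given. EPGN, EREG, AREG and BTC are consecutive protein-coding genes on chromosome 4 in GENCODE release 29, in that order, whereas HBEGF is on chromosome 5.

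The promoters of 8 of the 9 genes were matched in RefSeq (GRCh38.p14). Those of the 3 ligands that went together, and of their neighbour EPGN that did not, are shown because the levels of the first 3 went together over the libraries, although no motif searched was present in all 3. Each is the 250 bases before the annotated start, 5′ to 3′ on the gene's strand: AREG at chr4:74444886-74445135 on the plus strand, EREG at chr4:74364895-74365144 on the plus strand, HBEGF at chr5:140346604-140346853 on the minus strand and EPGN at chr4:74308220-74308469 on the plus strand. Capitals mark matches to a TATA box, TATAAA on the gene's strand, or to the cAMP response element TGACGTCA. The AP-1 element TGANTCA was searched too; it and TGACGTCA read the same on both strands, and no 2 matches overlapped.
AREG: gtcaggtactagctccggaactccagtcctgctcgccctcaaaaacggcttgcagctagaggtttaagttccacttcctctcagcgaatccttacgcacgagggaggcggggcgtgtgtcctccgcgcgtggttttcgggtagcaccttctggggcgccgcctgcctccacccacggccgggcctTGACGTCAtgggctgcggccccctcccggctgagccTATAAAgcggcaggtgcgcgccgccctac
EREG: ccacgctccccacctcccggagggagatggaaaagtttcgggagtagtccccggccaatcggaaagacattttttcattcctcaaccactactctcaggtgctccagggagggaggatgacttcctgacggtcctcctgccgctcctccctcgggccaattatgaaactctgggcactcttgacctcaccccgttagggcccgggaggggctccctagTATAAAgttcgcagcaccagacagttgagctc
HBEGF: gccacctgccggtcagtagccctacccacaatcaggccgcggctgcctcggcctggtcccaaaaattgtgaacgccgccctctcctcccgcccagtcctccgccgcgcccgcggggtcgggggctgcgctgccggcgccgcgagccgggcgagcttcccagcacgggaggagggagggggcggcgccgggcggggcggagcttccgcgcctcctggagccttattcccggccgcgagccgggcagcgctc
EPGN: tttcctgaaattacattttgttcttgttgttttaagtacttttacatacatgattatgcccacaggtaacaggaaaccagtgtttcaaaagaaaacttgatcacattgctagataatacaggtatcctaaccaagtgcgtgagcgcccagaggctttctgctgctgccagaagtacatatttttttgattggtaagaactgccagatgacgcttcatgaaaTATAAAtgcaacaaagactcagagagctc

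TATAAA lay 29 bases before the start in AREG, 32 in EREG and 29 in EPGN, and AREG held TGACGTCA 65 bases before the start. HBEGF held none of the 3 motifs in this window. Of 35116 RefSeq promoters of the same length, 10.72% held TATAAA on either strand, 1.65% TGACGTCA and 6.57% TGANTCA. For TATAAA on the gene's strand alone, that share is an upper limit. ERBB2 and the downstream one of the EGFR starts held TGANTCA. The GC content of these windows was 65.2% in AREG, 58.0% in EREG, 76.4% in HBEGF and 38.0% in EPGN.

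EPGN, epigen, had 32.5, 28.5 and 93.6 CPM in SRSF2-OE, 70.7 and 111 CPM in SRSF4-OE, 53.6 and 29.2 CPM in SRSF6-OE, 68.9, 37.5 and 17.3 CPM in SRSF9-OE, and 46.8 and 35.8 CPM in TRA2B-OE, against 43.8 and 51.5 CPM in Control. Only SRSF4-OE lay wholly above Control, at a log2 fold change of 0.94 ± 0.67 with an edgeR adjusted p of 0.507. In the other 4 groups the log2 fold change was between -0.22 and 0.16. Within SRSF2-OE the order of libraries was the reverse of that for AREG: replicate 3 was highest for EPGN and lowest for AREG.

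BTC, betacellulin, was at 0.06 to 0.49 CPM in every library, from 262 counts in all, and TGFA was at the floor. Of the pathway lists, STAM was at 0 CPM in every library and IER3 at 0.065 CPM or less. Whether such values reflect the cells or the way reads were assigned was not tested, so absence of TGFA transcript is not shown. BTC had 0.06, 0.13 and 0.13 CPM in SRSF2-OE, against 0.31 and 0.29 CPM in Control, without overlap. The log2 fold change in SRSF2-OE was -1.04 ± 0.61, with an edgeR adjusted p of 0.478, and DESeq2 gave no adjusted p at this depth. The AREG level rests on 6047 counts over the libraries. RefSeq lists AREGB as a synonym of AREG, and the build GRCh37 named for these data held a near-identical second copy under that name, so reads may have been split or lost and the AREG level is uncertain.

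Counted over the members tested, edgeR called 0 of 8 in each of the 5 comparisons with Control. It called 0% of all genes tested in SRSF2-OE, SRSF4-OE and SRSF9-OE, 0.00469% in SRSF6-OE and 0.00938% in TRA2B-OE. At an unadjusted p under 0.05 it gave 3 of 8 members in SRSF2-OE, 2 in SRSF4-OE, 1 in SRSF6-OE, 1 in SRSF9-OE and 2 in TRA2B-OE, beside 13.4%, 14.9%, 19.5%, 4.47% and 12.0% of all genes. limma-voom also called 0 of 8 in each, and of all genes 0.0891% in SRSF6-OE, 0.0234% in TRA2B-OE and 0% in the other 3. DESeq2 called 1 of 8 in SRSF2-OE, which was ERBB3, and 0 in the others, where it called 3.05% of genes in SRSF4-OE, 7.04% in SRSF6-OE, 0.0704% in SRSF9-OE and 2.30% in TRA2B-OE.

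By plain separation of libraries, most members did not overlap between SRSF4-OE and Control, which hold 2 libraries each. There 5 of 8 were wholly above Control (AREG, EREG, HBEGF, EPGN and BTC) and 2 wholly below (ERBB2 and ERBB3), where 25.3% of all genes tested were wholly above and 27.2% wholly below. BTC, near the floor, was above by little, at 0.361 and 0.313 CPM against 0.306 and 0.294 CPM in Control. In SRSF6-OE, AREG, EREG and HBEGF were wholly above and ERBB2 and ERBB3 wholly below (22.8% and 24.4% of all genes). In SRSF9-OE, AREG and EREG were wholly above and ERBB3 wholly below (16.5% and 17.6%). In TRA2B-OE no member was wholly above and all 3 receptors were wholly below (18.3% and 18.2%), and in SRSF2-OE none was above and ERBB3 and BTC were below (16.7% and 17.5%).

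The median log2 fold change of the 3 receptors was -0.62 in SRSF2-OE, -0.27 in SRSF4-OE, -0.38 in SRSF6-OE, -0.35 in SRSF9-OE and -0.70 in TRA2B-OE. That of the 5 ligands tested was 0.16, 1.29, 2.09, 0.92 and 1.53 in the same order of groups. The median of all genes tested lay between -0.04 and 0.04 in every comparison. The 5 comparisons share their Control libraries. The receptor medians were negative in all 5 comparisons, also under each of the 22 alternatives. These include leaving out libraries of groups not compared, which bear on a comparison only through the shared fit. The sign did not hold for each receptor, since EGFR was at 0.20 in SRSF4-OE and 0.29 in SRSF6-OE. The ligand medians were positive, but that of TRA2B-OE rests on a single library and was -1.05 without replicate 1-2. That of SRSF2-OE was -0.034 without replicate 2 and -0.0087 with only SRSF2-OE and Control fitted.

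Genes downstream of the receptors were described from lists of pathway genes. The list of ERK output and feedback genes, which transcribe in response to ERK activity and in part dampen it, had 14 of 15 members tested. Positive log2 fold changes were found for 12 of 14 in SRSF2-OE, 13 in SRSF4-OE, 13 in SRSF6-OE, 13 in SRSF9-OE and 12 in TRA2B-OE, with medians of 0.84, 1.23, 1.74, 1.13 and 0.54. Of all genes tested, 46.9% to 53.0% were positive in these comparisons. In TRA2B-OE replicate 3 all 14 genes were below Control replicate 3, which is of the same library set. In SRSF2-OE replicates 1 and 3 all but FOSL1 were below it. The counts of these 2 groups therefore do not hold for each of their libraries. Neither edgeR nor DESeq2 called any of the 14 genes in a comparison with Control, and DESeq2 gave no adjusted p for DUSP6. DUSP6, a phosphatase that inactivates ERK, had 27.0, 433 and 27.0 CPM in SRSF2-OE, 263 and 305 CPM in SRSF4-OE, 228 and 342 CPM in SRSF6-OE, 202, 205 and 296 CPM in SRSF9-OE, and 308 and 17.7 CPM in TRA2B-OE, against 16.8 and 130 CPM in Control. Its low libraries in SRSF2-OE and TRA2B-OE were those with low AREG. FOSL1, an AP-1 subunit, had the smallest p of the list over the 6 groups, with an edgeR adjusted p of 0.562.

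The levels of these genes went with AREG, EREG and HBEGF across the 14 libraries. The median r of the 14 genes was 0.83 to AREG, 0.80 to EREG and 0.82 to HBEGF, with 13 of 14 positive in each case and EGR1, an early response transcription factor, the exception. The median over all genes tested was -0.02 for each of these ligands. The highest r was 0.91 between DUSP6 and AREG, 0.89 between PHLDA1 and EREG, and 0.92 between SPRY4, an inhibitor of RAS-ERK signalling, and HBEGF. To EPGN the median r was -0.19 and to ERBB3 -0.14. As above, these values describe libraries that share groups, sets and depth.

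**Figure D3:**
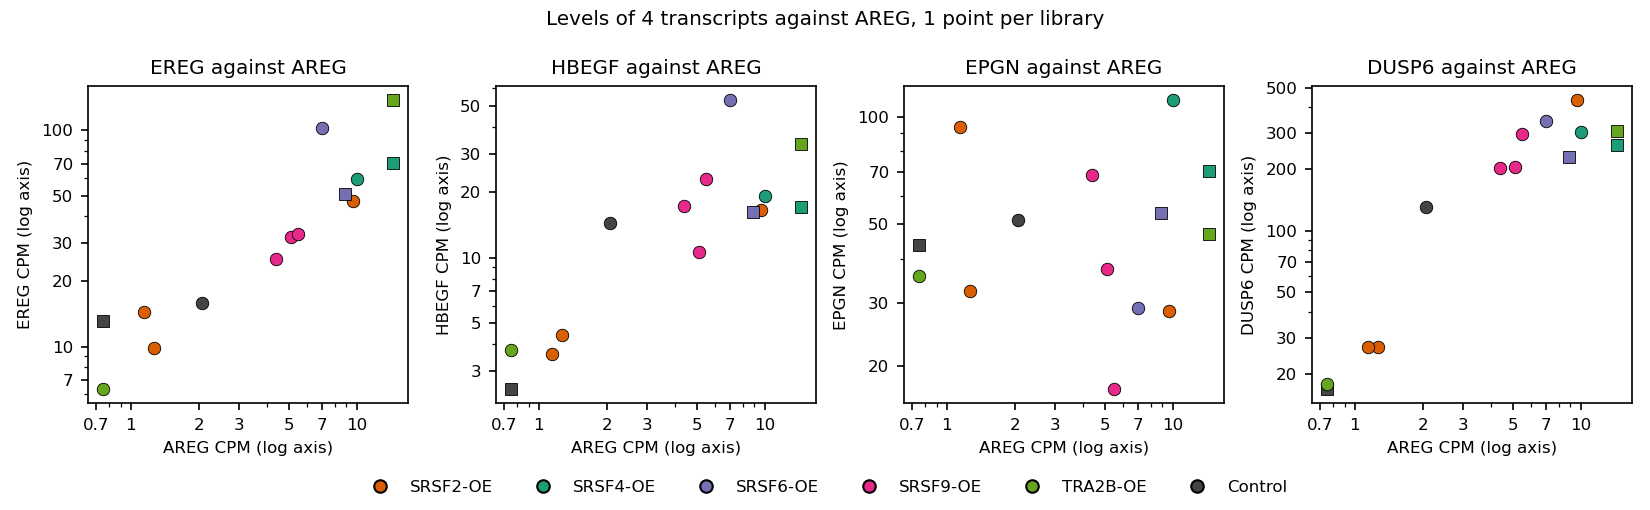
Levels of EREG, HBEGF, EPGN and the ERK phosphatase gene DUSP6 against AREG, in CPM on log axes, 1 point per library (squares, library ID set; circles, numeric set; colours, groups). EREG, HBEGF and DUSP6 increase with AREG over the libraries (r = 0.93, 0.83 and 0.91 on the log2(CPM + 1) scale), while EPGN does not (r = 0.08).

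The other lists held few calls. Among ligand release genes, 10 of 10 tested, edgeR called 0 in every comparison and DESeq2 called TIMP1, an inhibitor of metalloproteases. TIMP1 had 390, 344 and 209 CPM in SRSF2-OE, 178 and 188 in SRSF4-OE, 204 and 165 in SRSF6-OE, 164, 167 and 235 in SRSF9-OE, and 465 and 367 in TRA2B-OE, against 63.9 and 119 CPM in Control. Every overexpression library was above both Control libraries. Its log2 fold change was 2.20 ± 0.37 in TRA2B-OE, with an adjusted p of 9.82e-06 by DESeq2 and 0.0906 by edgeR, and 1.75 ± 0.35 in SRSF2-OE, with 0.000994 and 0.155.

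Of the other receptor and ligand genes, 4 of 6 were tested, since ERBB4 and NRG3 were at or near 0 CPM. NRG1, a neuregulin that binds ERBB3, had 1.97, 1.32 and 2.81 CPM in SRSF2-OE, 2.12 and 4.04 in SRSF4-OE, 2.67 and 12.0 in SRSF6-OE, 2.37, 0.80 and 0.93 in SRSF9-OE, and 2.72 and 1.30 in TRA2B-OE, against 0.49 and 1.30 CPM in Control. SRSF6-OE replicate 3 was the highest and stood well above the rest. In SRSF6-OE its log2 fold change was 2.94 ± 0.77, with an adjusted p of 0.00301 by DESeq2 and 0.154 by edgeR.

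Of 21 receptor adaptors and regulators 20 were tested, edgeR called 0, and DESeq2 called GAB1 and SOCS5 in SRSF2-OE and CBLB in SRSF4-OE, all lower. GAB1, a docking protein that links receptors to PI3K and ERK signalling, had 16.2, 16.6 and 15.7 CPM in SRSF2-OE, against 31.6 and 24.8 CPM in Control. Its log2 fold change was -0.88 ± 0.21, with an adjusted p of 0.0107 by DESeq2 and 0.178 by edgeR. GAB1 went with ERBB3 over the 14 libraries, with r of 0.85, the highest of its list. SOCS5, a suppressor of cytokine signalling, was at -0.65 ± 0.17 in SRSF2-OE, and CBLB, a ubiquitin ligase that acts on activated receptors, at -0.69 ± 0.18 in SRSF4-OE, with DESeq2 adjusted p of 0.0427 and 0.0286. CBLB had 19.8 and 18.3 CPM in SRSF4-OE, while the Control libraries lay far apart, at 40.5 and 23.2 CPM. The SRSF9-OE libraries were about as low, at 20.8, 19.2 and 19.9 CPM, and were not called (DESeq2 adjusted p = 0.881).

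In the RAS-ERK cascade all 13 genes were tested and edgeR called 0. The genes called by DESeq2 included MAP2K2, an ERK kinase, in SRSF6-OE, higher, at 0.81 ± 0.24 (adjusted p = 0.0444). Over the 6 groups DESeq2 called BRAF of this list (adjusted p = 0.0406). From the lists above it called the regulators PLCG1 (0.0463) and GAB1 (0.0409), the ligand gene NRG1 (0.00224) and TIMP1 (3.46e-05). In this comparison it called 8.04% of the genes it tested. In the PI3K-AKT list, 8 of 9 tested, neither tool called a gene, and PIK3CB, a PI3K catalytic subunit, had the smallest p over the 6 groups, with an edgeR adjusted p of 0.343.

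**Figure D4:**
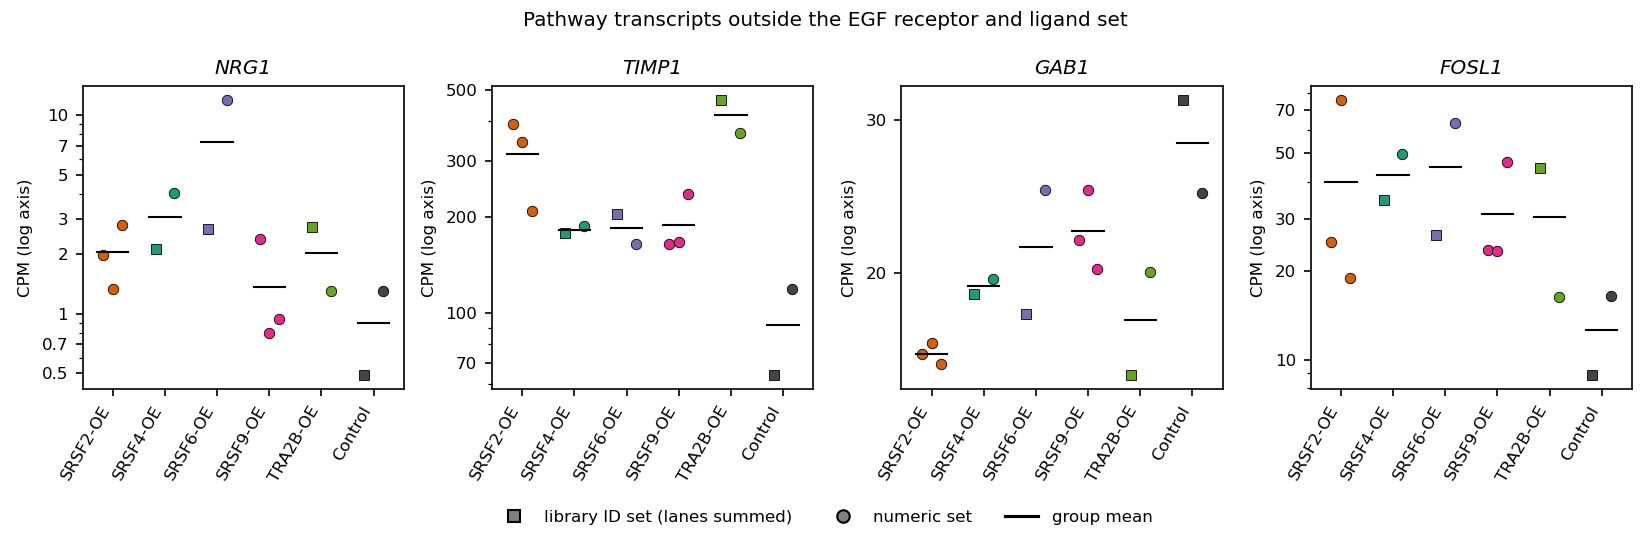
Levels of the ERBB3 ligand gene NRG1, the metalloprotease inhibitor gene TIMP1, the adaptor gene GAB1 and the AP-1 subunit gene FOSL1 in each library, in CPM on a log axis (symbols and lines as in the plot of the 8 members). TIMP1 lies above Control in all overexpression libraries. GAB1 in SRSF2-OE (15.7 to 16.6 CPM) lies below Control (24.8 and 31.6 CPM), as it does in SRSF4-OE and TRA2B-OE.

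For each member tested, the genes with the most similar levels over the 14 libraries were found by Pearson's r among up to 11452 named genes with a mean of at least 3 CPM. They included AGAP1 (r = 0.89) for EGFR, IL22RA1 (0.88) and SLC2A12 (0.86) for ERBB2, and PRRG4 (0.94) and MAP3K1 (0.93) for ERBB3. For the ligands they were CYB5R2 (0.97) and FOXL1 (0.95) for AREG, CYRIB (0.97) and EIF5A2 (0.96) for EREG, TSC22D1 (0.94) and TNIP1 (0.94) for HBEGF, PLK2 (0.94) and FN3KRP (0.89) for EPGN, and TARBP1 (0.90) and EDA2R (0.88) for BTC. As the highest of many correlations over few libraries, these values are descriptions only.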

How the data were processed

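For each of 18 samples the deposited table gives a raw read count per gene, as a whole number; sample sums were 36426438 to 70515965. The submitters' processing notes name the build GRCh37, featureCounts, Subread, STAR 2.5.1b and Trimmomatic 0.36, without roles; the strand setting and whether reads or pairs were counted are not given in the sources used here. The libraries came from a kit that keeps strand, per the labels' protocols. Names, exon lengths and overlaps came from GENCODE release 29, matched by ID (55910 of 60252 IDs).

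Members and lists were chosen with earlier results of these data known. All 9 members are named; from each list, up to 4 genes called by either tool per comparison are named, and otherwise the gene with the smallest p over the 6 groups; the 2 most similar genes are named per member. Some genes that this rule takes are not reported here. DUSP6, PHLDA1, SPRY4, EGR1, KRT17 and KDR were named after their values were seen. Lanes of a library ID were summed: the 4 such pairs had mean chi-squares per gene of 3.82 to 9.06, other pairs of a group 58.8 to 318.

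Counts of 14 libraries were normalised by TMM, filtered with filterByExpr (minimum count 10) and fitted with edgeR 4.0.16 (R 4.3.3), quasi-likelihood, with group and library set as terms. The residual degrees of freedom were 7 and the common biological variation (BCV) 0.318. A call needed an adjusted p (Benjamini-Hochberg over 21326 genes) under 0.05. Log2 fold changes are adjusted for library set. The model was also run on simulated data, whose outcome is not reported here, so its error rate at these group sizes is not given. DESeq2 1.42.0, limma-voom (limma 3.58.1), RLE size factors, no filter, no set term, a replicate block, 18 separate samples, the compared groups alone and leaving out each library were the alternatives.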

Additional observations from a re-analysis of the deposited data

How the results depend on the processing

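The 40 log2 fold changes of members over Control were recomputed under 8 alternatives and without each of 14 libraries. Under RLE size factors, DESeq2 and no filter none changed direction. The cause was not tested for any change. The number of members called was 0 in the model reported. DESeq2 called 1 in SRSF2-OE, 2 over the 6 groups and 1 between library sets. With 18 samples as separate replicates, which counts lanes as replicates, it was 2 in SRSF2-OE, 2 in SRSF4-OE, 3 in TRA2B-OE, 2 over the 6 groups and 1 between sets; with only the 2 groups compared, it was 3 in SRSF4-OE and 2 in SRSF6-OE. Leaving out single libraries gave 0 to 1 in SRSF2-OE, the 1 without SRSF2-OE replicate 1, and 0 elsewhere.

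Of all genes, DESeq2 called 506 in SRSF2-OE, 575 in SRSF4-OE, 1238 in SRSF6-OE, 15 in SRSF9-OE and 452 in TRA2B-OE, 18 samples 1345, 3465, 4030, 5 and 2897, the compared groups alone 0, 2504, 156, 1 and 0, limma-voom 0, 0, 19, 0 and 5, no filter 2, 3, 5, 2 and 12, and the model reported 0, 0, 1, 0 and 2. Without the set term it was 1 in SRSF9-OE and 0 in TRA2B-OE. Leaving out SRSF2-OE replicate 1 gave 69 in SRSF2-OE and 24 in SRSF4-OE, and leaving out TRA2B-OE replicate 1-2 or 3 gave 48 or 34 in SRSF6-OE.

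Same-numbered libraries of different groups did not all deviate together: 15 of 31 pairs had r above 0.1, from -0.53 to 0.55. Between groups of 2 libraries each, both pairs have the same r, and the replicate number goes with the library set. This count therefore cannot decide whether the numbers reflect a pairing. A replicate block in place of the set term gave 0 members and 0 genes in every comparison, and EPGN in SRSF9-OE turned to 0.0054.

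Small fold changes that turned direction were HBEGF in SRSF2-OE (0.11 by limma-voom, 0.039 with 18 samples), EPGN in SRSF2-OE (-0.060 by limma-voom, -0.0087 with 2 groups) and BTC in TRA2B-OE (0.066 by limma-voom, 0.058 without the set term, 0.17 with 18 samples). Leaving out single libraries turned 13. AREG ran from -0.0018 to 3.94 in SRSF2-OE and -0.91 to 3.50 in TRA2B-OE, EREG from -0.034 to 1.81 and -1.34 to 3.41, and HBEGF from -1.17 to 2.01 and -1.48 to 3.11. EPGN ran from -0.60 to 0.45 in SRSF2-OE, -0.79 to 0.26 in SRSF6-OE, -0.76 to 0.20 in SRSF9-OE and -0.41 to 0.013 in TRA2B-OE. BTC ran from -0.34 to 0.73 in SRSF4-OE, -1.02 to 0.075 in SRSF6-OE and -1.05 to 0.45 in TRA2B-OE. At 262 counts in all, BTC is limited by depth.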
